A study of Oryza sativa Japonica Group with 15 samples.

Results

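CSLC1, CSLC7 and CSLC9 are rice genes of the cellulose synthase-like C (CSLC) family. They were read here through 1 probe set each among 57381 probe sets on the array, and 5 rice CSLC genes in all were matched to a probe set by name. The array as a whole names 17905 genes. The probe set of CSLC9 was given by its ID, and those of CSLC1 and CSLC7 were chosen by mean signal, as the brightest ones that the array annotation assigns to each gene. Each had only 1 such probe set, so brightness left nothing to choose. The mean log2 signals over the 15 arrays, given as a description, were 5.80 for CSLC1 (locus Os01g56130), 5.65 for CSLC7 (Os05g43530) and 4.69 for CSLC9 (Os03g56060), where 0 is the median of all probe sets of an array. The family was taken up with earlier results of these arrays in view, and all 3 genes stand in the study's tables of transcripts that differed at 6 h. The tests at 6 h therefore measure how large the differences were against the spread between replicates, and are no independent evidence that these genes differ. Tests over time that include 6 h use the same values, so this holds for them too.

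Xyloglucan is a hemicellulose that coats and links cellulose microfibrils in the primary wall of growing plant cells, and grass walls hold less of it than those of most other flowering plants. Its backbone is a glucan chain made in the Golgi, a role shown for CSLC proteins in Arabidopsis. Xylosyl-, galactosyl- and fucosyltransferases then add the side chains, and in the wall xyloglucan endotransglucosylase/hydrolases (XTH enzymes) cut and rejoin the polymer. When a grass shoot is laid on its side, cells of the lower flank elongate more than those of the upper flank and the shoot bends upwards.

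The arrays cover 5 groups of 3 biological replicates from the shoot base of 21-day-old seedlings of Oryza sativa ssp. japonica. All seedlings, the 0 h group included, had stood in darkness for 16 h. The labels give the steps that followed as done without light and the study's methods give dim green light. The 0 h samples are whole shoot bases of upright plants, whereas the other 4 groups are the upper or the lower flank cut from plants turned by 90° to the horizontal for 0.5 h or 6 h. A comparison with 0 h thus mixes the time since turning with the cutting into flanks, and flanks of plants left upright for 6 h were not analysed here, so that turning and elapsed time cannot be told apart in the comparisons over time. Each array read a pool of tissue from many seedlings, and a shoot base holds leaf sheath, stem and meristem tissue, so that more cells of a type and more RNA per cell cannot be told apart.

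Of the markers for the tissue, OSH1 and OSH71, homeobox genes of shoot meristem and stem, were bright in every group, with group means of 7.21 to 7.44 and 6.56 to 6.97 on the log2 scale, and OSH6 lay at 3.93 to 4.26. OSH15 had no probe set matched by name. The root regulators SHR1 and SCR1 read 2.03 to 3.29 and 0.51 to 1.66, and CAB2R for green tissue 4.61 to 5.40. Levels of different probe sets are not compared as amounts of tissue. None of these markers, nor CESA4, CESA7 and CESA9 for secondary walls, passed between the flanks at 6 h, with adjusted p-values of 0.457 or above. The 5 arrays of replicate 1 had higher medians, 22.8 to 29.6 signal units against 17.2 to 23.0 in the other 10 arrays. Their DapX 5′ control, a spiked bacterial transcript, read 107 to 209 units against 16.5 to 26.3. Results were therefore also computed without them, and are given where a call was lost.

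At 6 h the transcripts of CSLC1, CSLC7 and CSLC9 were all more abundant in the lower flank, by 2.02-fold, 1.83-fold and 1.57-fold. The changes over time that passed lay in different flanks. CSLC1 rose in the lower flank while its level in the upper flank did not pass the test for a change. CSLC7 and CSLC9 fell in the upper flank while their changes in the lower flank did not pass. Whether the flanks changed differently is tested by the growth of the flank difference from 0.5 h to 6 h. This growth passed for CSLC1, for CSLC7 only under some other settings, and not for CSLC9. At 0.5 h none of the 3 passed between the flanks. The plot of single arrays shows both patterns.

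**Figure D1:**
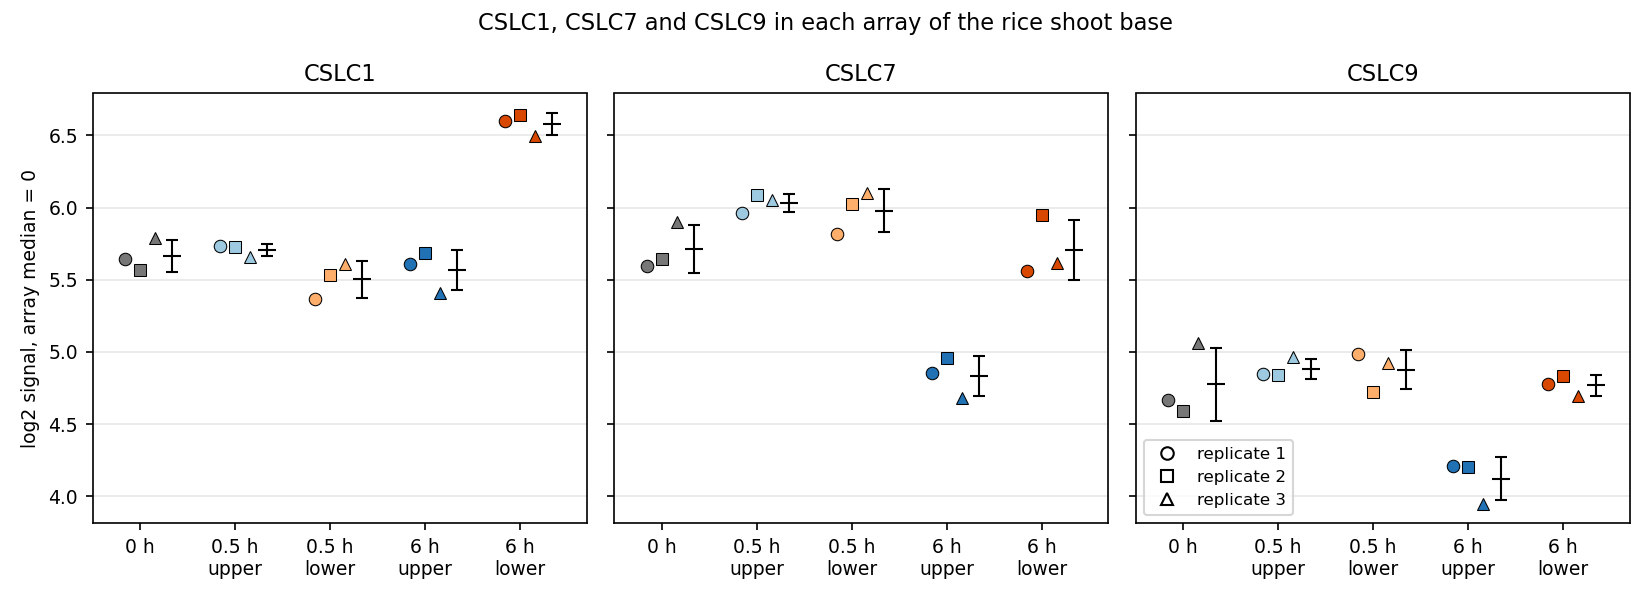
Log2 signal (y axis, array median = 0) of CSLC1, CSLC7 and CSLC9 in the 5 groups (x axis), with 1 point per array, marker shape by replicate, and the mean with 1 SD (n = 3) as a bar beside the points. CSLC1 stands at 6.50 to 6.64 in the lower flank after 6 h and at 5.79 or below everywhere else, while CSLC7 and CSLC9 have their lowest 3 arrays in the upper flank after 6 h.

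CSLC1 read 5.64, 5.57 and 5.79 in the 3 arrays at 0 h. At 0.5 h its log2 signals were 5.73, 5.73 and 5.66 in the upper flank and 5.36, 5.53 and 5.61 in the lower flank. At 6 h they were 5.61, 5.68 and 5.41 in the upper flank and 6.60, 6.64 and 6.50 in the lower flank. The lower flank at 6 h was thus the highest of the 5 groups and overlapped with none of them, whereas all arrays of the other 4 groups lay between 5.36 and 5.79. In deposited units, which differ in scale between arrays, the lower flank at 6 h gave 1548 to 2217 and the upper flank 764 to 1182. The 3 pairs of flanks differed by 0.99, 0.96 and 1.08.

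CSLC7 read 5.59, 5.65 and 5.90 at 0 h. At 0.5 h it stood at 5.96, 6.08 and 6.05 in the upper flank and at 5.82, 6.02 and 6.10 in the lower flank. At 6 h the upper flank gave 4.85, 4.96 and 4.68 and the lower flank 5.56, 5.95 and 5.61. The upper flank at 6 h was the lowest group and overlapped with none of the others, and the lower flank at 6 h covered the range of the 0 h arrays. All 3 upper-flank arrays at 0.5 h lay above both of those groups. The flank pairs at 6 h differed by 0.71, 0.99 and 0.93. The suffix of this probe set marks that some of its probes can match other transcripts, so a share of its signal may come from those. A second probe set, which the study's tables name CSLC7 and the array annotation does not, was dimmer but moved alike between groups. Its group means were 3.92 at 0 h, 4.14 and 4.20 in the upper and lower flank at 0.5 h, and 3.13 and 3.94 at 6 h. Its lower flank exceeded its upper flank at 6 h by 0.81 (SE 0.13, limma adjusted p = 0.00599).

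CSLC9 read 4.67, 4.59 and 5.06 at 0 h, where replicate 3 was the highest of all 15 arrays. At 0.5 h it gave 4.85, 4.84 and 4.96 in the upper flank and 4.99, 4.73 and 4.92 in the lower flank. At 6 h its log2 signals were 4.21, 4.21 and 3.95 in the upper flank and 4.78, 4.84 and 4.69 in the lower flank. As for CSLC7, the 3 arrays of the upper flank at 6 h were the lowest. The 0 h arrays spanned the ranges of the remaining 3 groups. The flank pairs at 6 h differed by 0.57, 0.63 and 0.74, the smallest differences of the 3 genes.

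The group means put the order of the levels in words. For CSLC1 they were 5.50 ± 0.13 (SD, n = 3 here and below) in the lower flank after 0.5 h, 5.57 ± 0.14 in the upper flank after 6 h, 5.67 ± 0.11 at 0 h, 5.71 ± 0.04 in the upper flank after 0.5 h and 6.58 ± 0.07 in the lower flank after 6 h, and only the last step exceeded the spread. For CSLC7 the order was 4.83 ± 0.14 in the upper flank after 6 h, 5.71 ± 0.21 in the lower flank after 6 h, 5.71 ± 0.17 at 0 h, 5.98 ± 0.15 in the lower flank after 0.5 h and 6.03 ± 0.06 in the upper flank after 0.5 h. The first step lay far beyond the spread, and the arrays of the next neighbours overlapped. The step of 0.27 from 0 h to the lower flank after 0.5 h exceeded the SD of either group and was not called. For CSLC9 the order was 4.12 ± 0.15 in the upper flank after 6 h, 4.77 ± 0.07 in the lower flank after 6 h, 4.78 ± 0.25 at 0 h, and 4.88 in both flanks at 0.5 h, with an SD of 0.14 in the lower and 0.07 in the upper one. Here only the first step was larger than the spread.

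The fit across all 28597 probe sets tested, with limma and Benjamini-Hochberg adjustment, gave the size of these differences. Between the flanks at 6 h, CSLC1 was higher in the lower one by 1.01 on the log2 scale (SE 0.11, 95% interval 0.77 to 1.26, adjusted p = 0.000317). For CSLC7 the difference was 0.87 (SE 0.14, 0.57 to 1.17, adjusted p = 0.00488) and for CSLC9 0.65 (SE 0.14, 0.35 to 0.94, adjusted p = 0.0323). All 3 were called higher, where 1.47% of all probe sets tested were, and in all 3 the arrays of the flanks did not overlap, as in 7.42% of probe sets. This count is read with the caveat that the genes stand in the study's tables for this very comparison.

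Not all of these calls were equally firm. CSLC1 and CSLC7 passed with any 1 of the 15 arrays left out. CSLC9 passed in 6 of these 15 fits, with a difference of 0.56 to 0.69 throughout. Its adjusted p rose to 0.151 without replicate 3, 0.0756 without replicate 2 and 0.0643 without replicate 1 of the upper flank at 6 h. Leaving out replicate 2, 1 or 3 of the lower flank at 6 h gave 0.132, 0.0936 and 0.0556. It was 0.0526 without replicate 2 and 0.0508 without replicate 3 of the upper flank at 0.5 h, and 0.0525 without replicate 3 of the lower flank at 0.5 h.

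Without the 5 arrays of replicate 1, CSLC1 kept its call, whereas CSLC7 (0.96, adjusted p = 0.0637) and CSLC9 (0.69, adjusted p = 0.213) kept their size and lost it. Without centring of the arrays no CSLC gene passed at 6 h, with 1.02, 0.88 and 0.65 for CSLC1, CSLC7 and CSLC9 (adjusted p = 0.0593, 0.0839 and 0.441). A fit on the 6 arrays of the comparison alone kept CSLC1 and lost CSLC7 (adjusted p = 0.0985) and CSLC9 (adjusted p = 0.147), and testing all probe sets without the filter lost CSLC9 (adjusted p = 0.161).

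**Figure D2:**
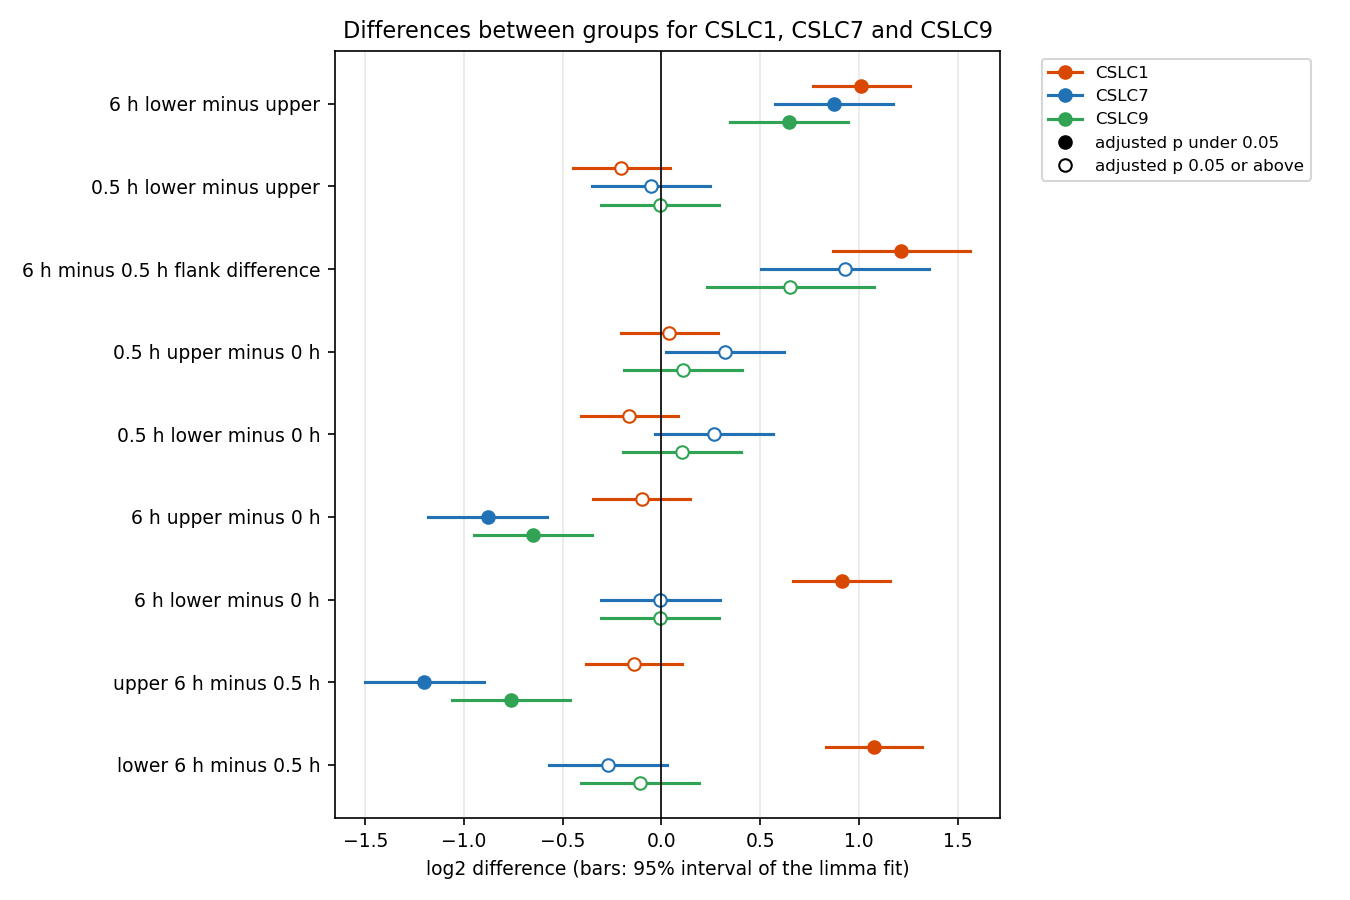
Log2 differences between groups (x axis) in the 9 comparisons (y axis) for CSLC1, CSLC7 and CSLC9, with 95% intervals of the limma fit and filled points where the adjusted p lay under 0.05. At 6 h all 3 points lie right of 0 between the flanks, in the lower flank from 0.5 h to 6 h only the interval of CSLC1 lies clear of 0, to its right, and in the upper flank only those of CSLC7 and CSLC9, to its left.

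At 0.5 h the lower flank differed from the upper one by −0.20 for CSLC1 (95% interval −0.45 to 0.04), −0.05 for CSLC7 (−0.35 to 0.25) and −0.01 for CSLC9 (−0.30 to 0.29), with adjusted p-values of 0.992, 0.993 and 0.998. Only 0.00699% of all probe sets were called in this comparison, so these intervals bound the differences at 0.5 h without showing that there was none. Against 0 h, the flanks at 0.5 h differed by −0.16 to 0.32 for the 3 genes and none was called (adjusted p = 0.282 or above), where 1.68% of probe sets were in the upper and 1.63% in the lower flank. The flank difference grew from 0.5 h to 6 h by 1.22 for CSLC1 (SE 0.16, adjusted p = 0.00407). The growth was 0.93 for CSLC7 (SE 0.20, adjusted p = 0.0668) and 0.65 for CSLC9 (SE 0.19, adjusted p = 0.294), neither of which passed, where 0.497% of probe sets passed upwards. With the flank pairs of a time and replicate number as a block, the growth for CSLC7 passed (adjusted p = 0.0408). The arrays show such pairs clearly at 6 h but not for every number at 0.5 h. Without the 5 arrays of replicate 1, that of CSLC1 was 1.14 and did not pass (adjusted p = 0.132).

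Over time within the lower flank, CSLC1 rose 2.11-fold from 0.5 h to 6 h, by 1.08 on the log2 scale (SE 0.11, adjusted p = 2.42e-05), and stood 0.91 above 0 h (SE 0.11, adjusted p = 0.000152). Against 0 h, 6.22% of all probe sets were called higher in this group, and 9.14% lay above it without overlap. In the upper flank its change from 0.5 h to 6 h was −0.14 (95% interval −0.38 to 0.11, adjusted p = 0.388). A rise called in the lower flank together with no call in the upper one was found for 1.76% of all probe sets tested, and 10.8% were called higher in the lower flank whatever the upper one did.

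CSLC7 fell in the upper flank by 1.20 from 0.5 h to 6 h (SE 0.14, adjusted p = 3.51e-05), a 2.30-fold drop. CSLC9 fell there by 0.76 (SE 0.14, adjusted p = 0.00102), a 1.69-fold drop. Below the 0 h level the upper flank at 6 h stood by −0.88 for CSLC7 (adjusted p = 0.000671) and −0.65 for CSLC9 (adjusted p = 0.00443), where 15.4% of all probe sets were called lower and 23.9% lay lower without overlap. In the lower flank the changes from 0.5 h to 6 h were −0.27 for CSLC7 (95% interval −0.57 to 0.03, adjusted p = 0.181) and −0.11 for CSLC9 (−0.41 to 0.19, adjusted p = 0.627), and both genes ended at −0.01 against 0 h (−0.31 to 0.29 and −0.30 to 0.29). Without centring, or with 16 added to each signal, the fall of CSLC7 in the lower flank also passed (−0.60 and −0.40, adjusted p = 0.0437 and 0.0350). CSLC9 in the upper flank against 0 h lost its call without centring (adjusted p = 0.0685) and on the arrays of the comparison alone (adjusted p = 0.0550). A fall called in the upper flank with no call in the lower one was more common than the pattern of CSLC1, at 7.47% of all probe sets, and 18.9% were called lower in the upper flank in all. The 3 secondary-wall markers CESA4, CESA7 and CESA9 fell over the same interval, by medians of 1.20 in the upper and 1.24 in the lower flank. Both root markers, SHR1 and SCR1, also fell, by medians of 1.08 and 0.97. All 5 of these markers thus fell in both flanks. None of the 3 meristem and stem markers was called over this interval (medians −0.06 in the upper and −0.09 in the lower flank), nor was CAB2R (0.26 and 0.19). The part of the markers in the values of these genes was not tested.

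**Figure D3:**
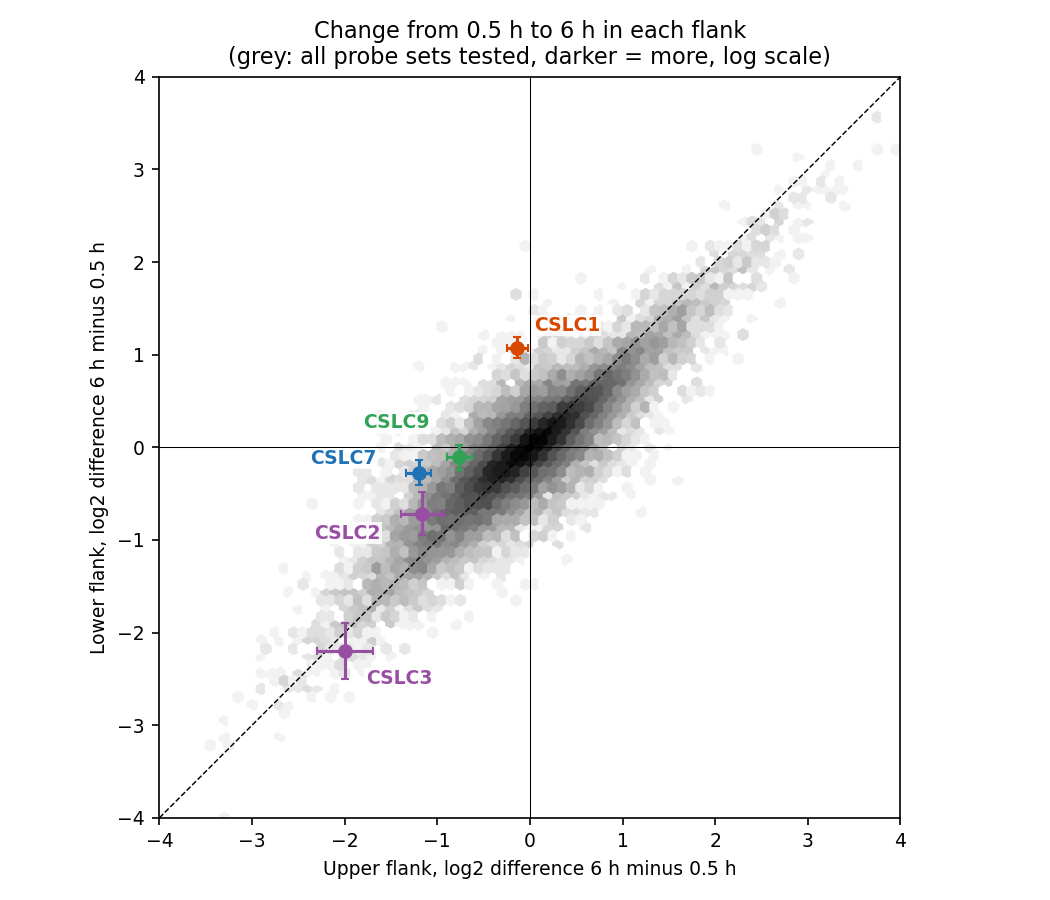
Log2 change from 0.5 h to 6 h, with the upper flank on the x axis and the lower flank on the y axis, for the 5 CSLC genes (points with 1 SE) over all 28597 probe sets tested (grey, darker where more fall together on a log scale), with a dashed line where both flanks change alike and 98 probe sets beyond the range of 4 not drawn. CSLC1 (−0.14, 1.08), CSLC7 (−1.20, −0.27) and CSLC9 (−0.76, −0.11) lie above the line, and CSLC2 (−1.16, −0.71) and CSLC3 (−2.0, −2.2) lie nearer to it.

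The members were also set against each other within each array, where any scaling of the array cancels. The level of one probe set against another has no meaning of its own, so that only the change of such a difference between groups is read. CSLC1 minus CSLC7 was −0.05 ± 0.09 at 0 h, −0.33 ± 0.08 in the upper and −0.48 ± 0.02 in the lower flank after 0.5 h, and 0.73 ± 0.02 in the upper and 0.87 ± 0.17 in the lower flank after 6 h. From 0.5 h to 6 h CSLC1 therefore gained on CSLC7 in both flanks, by 1.06 in the upper (SE 0.05) and by 1.35 in the lower one (SE 0.10), while between the flanks at 6 h the pair shifted by only 0.14 (SE 0.10), with overlapping arrays (exact permutation test, two-sided, p = 0.4). The larger shifts of this pair were thus those with time, in the upper and the lower flank alike.

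CSLC1 minus CSLC9 moved likewise from 0.5 h to 6 h, by 0.62 in the upper flank (SE 0.07) and 1.19 in the lower one (SE 0.13). Here the flanks at 6 h also parted, at 1.4 to 1.48 in the upper and 1.80 to 1.82 in the lower flank. CSLC7 minus CSLC9 was 0.94 both at 0 h and in the lower flank after 6 h, 1.15 and 1.10 in the upper and lower flank at 0.5 h, and lowest in the upper flank after 6 h, at 0.71 ± 0.06. In all, 18 such changes were computed. With 3 arrays against 3 the exact two-sided permutation test cannot go below p = 0.1, which the shifts with no overlap reached, and the lowest adjusted p over the 18 was 0.138, so that none of them passes on its own.

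**Figure D4:**
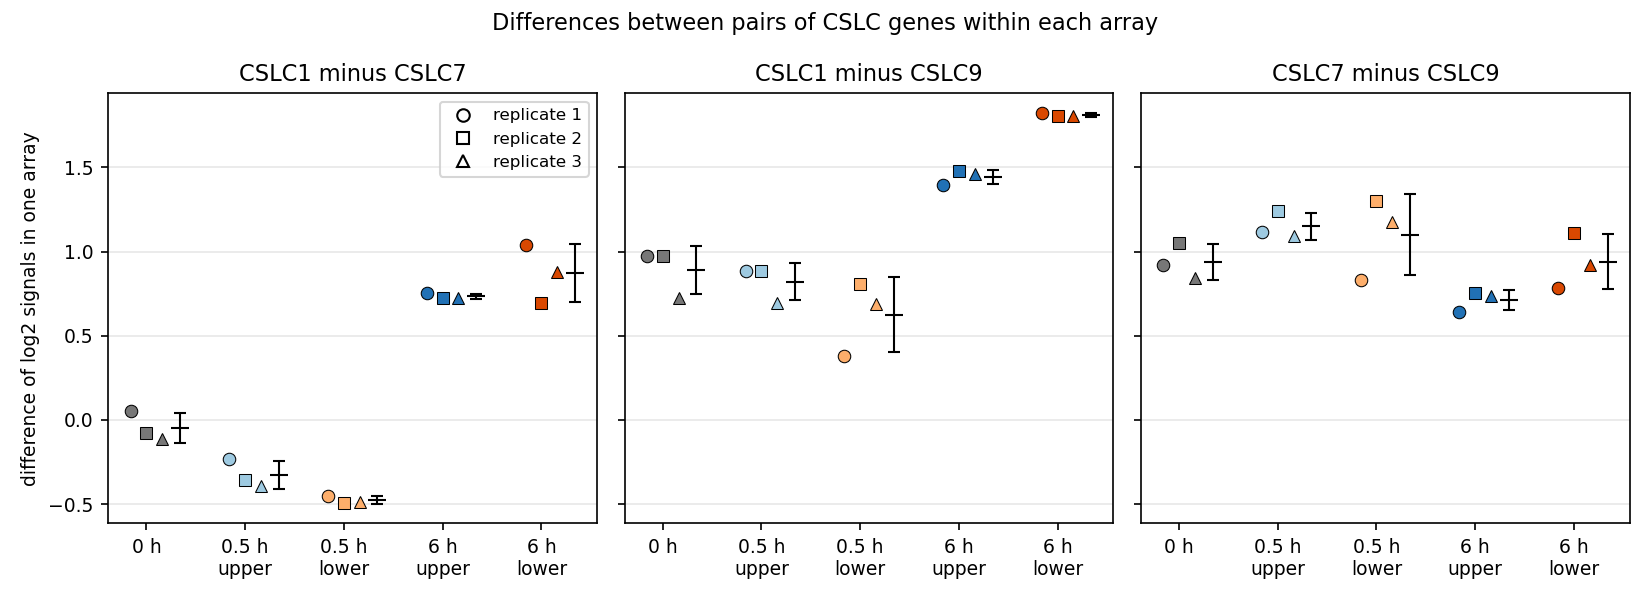
Difference of the log2 signals of 2 CSLC genes in the same array (y axis) in the 5 groups (x axis), with 1 point per array, marker shape by replicate, and the mean with 1 SD (n = 3). CSLC1 minus CSLC7 lies at 0.05 or below in all 9 arrays up to 0.5 h and at 0.69 or above in all 6 arrays at 6 h, in the upper and the lower flank alike.

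Over the 15 arrays, CSLC7 and CSLC9 had similar profiles (Pearson r = 0.93, Spearman rho = 0.73), and CSLC1 was unlike either (r = 0.15 with CSLC7 and 0.22 with CSLC9). These values describe 15 arrays that form 5 groups and share their scaling. Without the 3 upper-flank arrays at 6 h, the value for CSLC7 and CSLC9 dropped to 0.57 over 12 arrays, so much of the likeness rests on that group. Within groups, the deviations from the group means correlated at 0.78 between CSLC1 and CSLC7, 0.54 between CSLC1 and CSLC9 and 0.53 between CSLC7 and CSLC9. The second probe set of CSLC7 reached only 0.31 with the first by this measure. No such value was computed for other pairs of genes, so these are not read as a tie between the genes.

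The other CSLC genes with a matched probe set, CSLC2 and CSLC3, stand outside the study's tables, and neither passed between the flanks at 6 h. CSLC2 was 0.24 higher in the lower flank after 6 h (SE 0.23, adjusted p = 0.707), and CSLC3 differed by −0.42 (SE 0.31, adjusted p = 0.621). Both fell with time in both flanks, as did 11.3% of all probe sets tested. From 0.5 h to 6 h CSLC2 in the upper flank dropped by 1.16 on the log2 scale (adjusted p = 0.0020) and that in the lower flank dropped by 0.71 (adjusted p = 0.0397), a call that held in 8 of 15 fits with 1 array left out.

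CSLC3 had the widest swing of the family. It gave 3.25, 3.60 and 2.32 at 0 h, 4.24, 4.43 and 4.50 in the upper and 4.29, 4.29 and 3.94 in the lower flank after 0.5 h, and 2.19, 2.40 and 2.58 in the upper and 2.1, 2.43 and 1.38 in the lower flank after 6 h. All 6 flank arrays at 0.5 h lay above the 0 h arrays, and the 6 arrays at 6 h lay below those at 0.5 h. The rise at 0.5 h was 1.33 in the upper flank (SE 0.31, adjusted p = 0.0495) and 1.11 in the lower one (SE 0.31, adjusted p = 0.0915), so that the first passed and the second did not. The first call held in 2 of 15 fits with 1 array left out, and the second value passed with the replicate number as a block (adjusted p = 0.0393). The fall from 0.5 h to 6 h was 2.0 in the upper (adjusted p = 0.000301) and 2.2 in the lower flank (adjusted p = 0.000198). CSLC10 had no probe set matched by name. Across the family, 3 of 5 genes tested were higher in the lower flank after 6 h and 0 of the 2 outside the study's tables were, where 1.47% of all probe sets tested were called higher.

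Among the enzymes that add side chains to the backbone, 4 genes were matched and 3 tested, and all 3 were higher in the lower flank after 6 h, where 1.47% of all probe sets tested were called higher. Their median difference was 0.72, beside −0.08 over all probe sets tested. All 4 stand in the study's tables of transcripts that differed, so the count is not independent evidence. XXT1, a xyloglucan xylosyltransferase, was higher by 0.72 (SE 0.12, adjusted p = 0.00692), with group means of 6.22 in the upper and 6.94 in the lower flank. Os04g48480, described as a galactosyltransferase like KATAMARI1, which in Arabidopsis galactosylates xyloglucan, was higher by 0.69 (SE 0.12, adjusted p = 0.00826). Both rose in the lower flank from 0.5 h to 6 h, by 0.50 (adjusted p = 0.00814) and 1.02 (adjusted p = 5.17e-05), as CSLC1 did. XXT1 also fell in the upper flank, by 0.36 (adjusted p = 0.0364, called in 10 of 15 fits with 1 array left out).

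Os01g56570, described as a xylosyltransferase, had its call over time in the upper flank, as CSLC7 and CSLC9 did. It was higher in the lower flank by 1.34 (SE 0.29, adjusted p = 0.0347), fell in the upper flank by 1.55 from 0.5 h to 6 h (SE 0.29, adjusted p = 0.00125) and changed by 0.11 in the lower one (adjusted p = 0.826). At 6 h its mean was 0.15 (SD 0.70) in the upper flank, close to the array median, and 1.49 (SD 0.39) in the lower one. Both the fall and the flank difference thus rest on a dim group. The putative fucosyltransferase Os06g10980 was too dim to be tested, with group means of 0.08 or below. With 1 array left out, Os01g56570 was called at 6 h in 8 of 15 fits, Os04g48480 in 13 and XXT1 in 15. Without the 5 arrays of replicate 1, 1 of the 3 side-chain genes was called, without centring 1, and without the filter on dim probe sets 0. All probe sets called higher numbered 205, 183 and 214 in the same order, beside 421 in the main fit.

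XTH genes, whose products remodel xyloglucan in the wall, were matched for 7 loci, of which 2 were higher in the lower flank after 6 h and none lower, beside 1.47% of all probe sets called higher. Os04g51460 differed by 2.63 (SE 0.21, adjusted p = 2.40e-05), with group means of 1.75 in the upper and 4.38 in the lower flank, and rose in the lower flank by 2.18 from 0.5 h to 6 h (adjusted p = 1.41e-05) while it fell by 1.06 in the upper one (adjusted p = 0.00222). Os07g34580 differed by 0.94 (SE 0.19, adjusted p = 0.0209) and was called in 10 of 15 fits with 1 array left out. XTH8, the 1 gene of the list outside the study's tables, differed by 0.10 (SE 0.12, adjusted p = 0.775). With the flank pairs as a block 3 of the 7 were called higher and 1 lower, where calls over all probe sets numbered 1073 against 502. Os07g34580 lost its call there (adjusted p = 0.0668), Os02g46910 (0.54) and Os06g48160 (0.69) were called higher and Os10g39840 (−0.77) lower. Without the arrays of replicate 1, without centring or without the filter 1 of the 7 was called, where 205, 183 and 214 probe sets in all were called higher.

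The remaining cellulose synthase-like families make other wall polysaccharides, mannans by CSLA and mixed-linkage glucan by CSLF and CSLH proteins among them. Of 16 matched genes 12 were tested and 1 was higher in the lower flank after 6 h, where 1.47% of all probe sets were called higher. This was CSLA11, by 1.45 (SE 0.26, adjusted p = 0.00946), called in 14 of 15 fits with 1 array left out. CSLF6, a mixed-linkage glucan synthase, differed by 1.25 without passing (SE 0.42, adjusted p = 0.228), and passed with the flank pairs as a block (SE 0.12, adjusted p = 0.00459). CSLA1, the brightest gene of the list, had means of 6.94 (SD 0.08) in the upper and 6.91 (SD 0.13) in the lower flank after 6 h. None of the 10 tested genes outside the study's tables, CSLA1 among them, was called, and their median difference was −0.05. One of them, CSLD2, named here after its values were seen, differed by 0.46 (SE 0.14, adjusted p = 0.169) and was called higher with the flank pairs as a block (0.46, adjusted p = 0.0492), with quantile scaling (0.49, adjusted p = 0.0270) and with centring on the 75th percentile (0.51, adjusted p = 0.0255). With the flank pairs as a block 3 of the 12 were called, with quantile scaling or centring on the 75th percentile 2, and without centring or without the filter 0. Beside 421 in the main fit, all probe sets called higher numbered 761, 489, 514, 183 and 214 under these settings in turn.

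Of the 9 cellulose synthases, CESA6 (0.50, SE 0.11, adjusted p = 0.0440) and CESA8 (0.52, SE 0.12, adjusted p = 0.0466) were higher in the lower flank after 6 h, where 1.47% of all probe sets were called higher. None of the 5 whose brightest probe set stands outside the study's tables was. Among these, CESA1 and CESA3 each have a dimmer probe set that does stand in the tables. Its means at 6 h were 1.63 (SD 1.03) in the upper and 2.70 (SD 1.32) in the lower flank for CESA1. For CESA3 they were 4.21 (SD 0.48) and 4.63 (SD 0.54). The calls of CESA6 and CESA8 lie near the threshold. With 1 array left out they held in 3 and 2 of 15 fits. Without centring, without the filter or without the arrays of replicate 1, 0 of the 9 were called, where 183, 214 and 205 probe sets in all were called higher. CESA8 also lost its call with quantile scaling, centring on the 75th percentile and 16 added to each signal (limma adjusted p = 0.0770, 0.0878 and 0.163). CESA5 (0.46, limma adjusted p = 0.0767) was called with quantile scaling (0.50, adjusted p = 0.0306) and centring on the 75th percentile (0.52, adjusted p = 0.0188). In the upper flank 8 of the 9 fell from 0.5 h to 6 h, where 18.9% of all probe sets were called lower, CESA6 by 1.01 (adjusted p = 2.85e-05) and CESA8 by 0.88 (adjusted p = 0.000112). In the lower flank 5 of the 9 fell, where 13.6% of all probe sets were called lower. CESA6 and CESA8 were not among these, at −0.29 (adjusted p = 0.0848) and −0.34 (adjusted p = 0.0535).

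**Figure D5:**
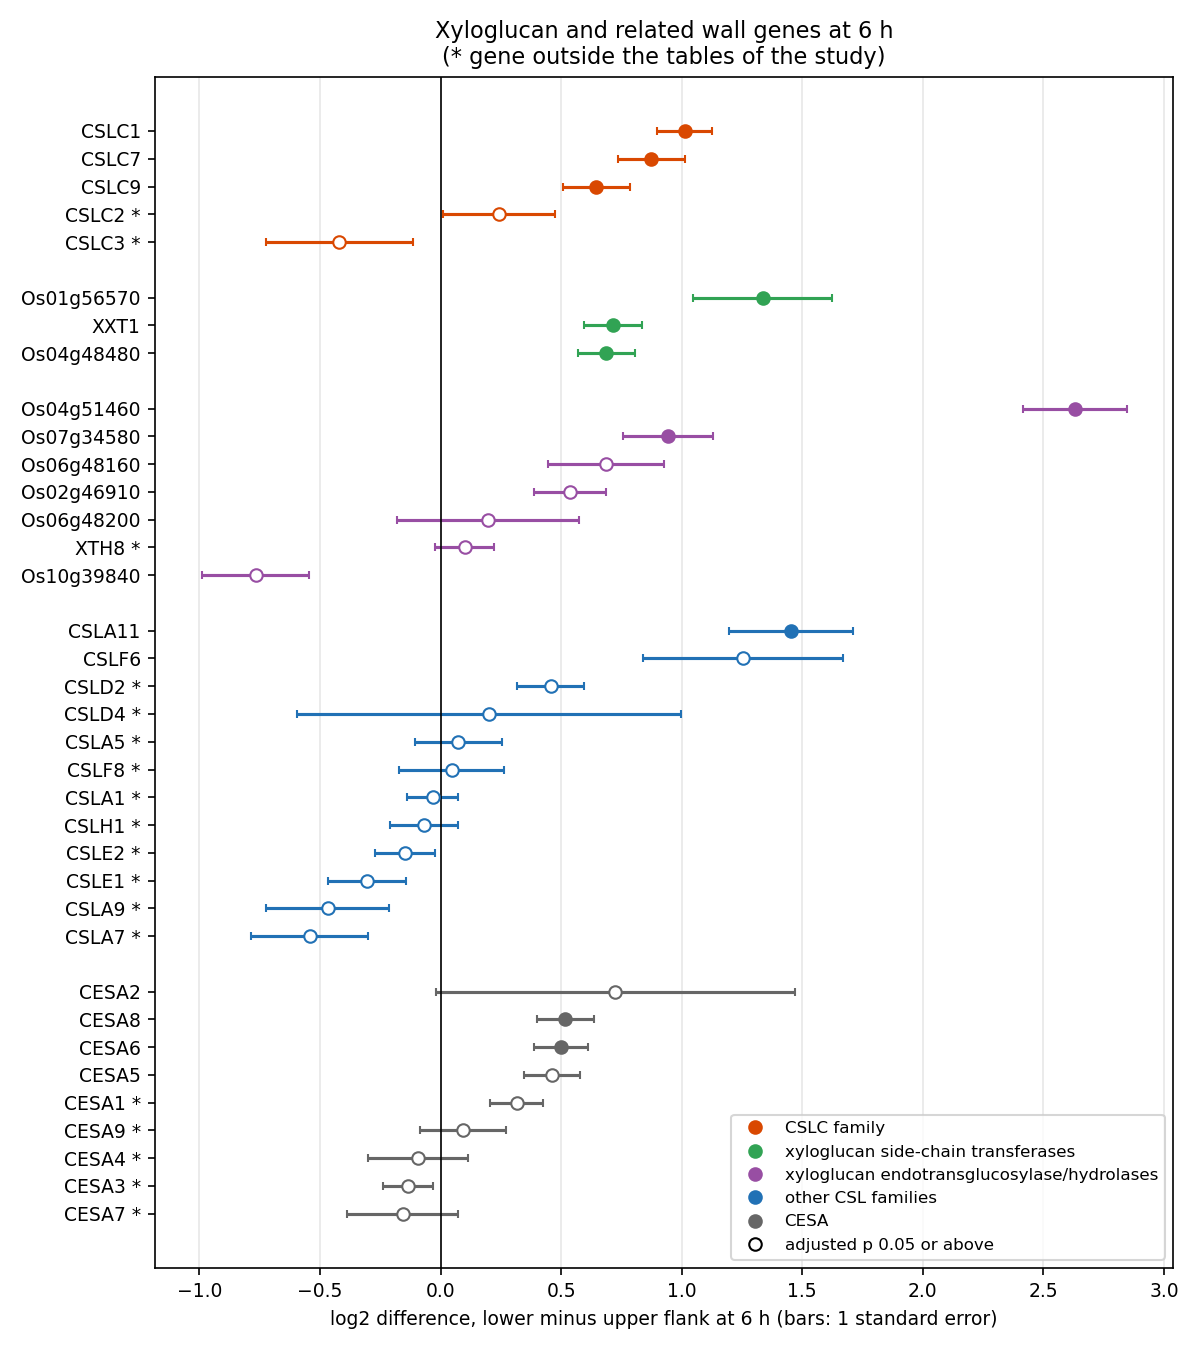
Log2 difference of the lower minus the upper flank at 6 h (x axis, with 1 SE) for each tested gene of the CSLC family, the side-chain transferases, the XTH enzymes, the other CSL families and CESA (y axis), filled where the adjusted p lay under 0.05 and starred where the probe set shown stands outside the study's tables. For CESA1 and CESA3 a dimmer probe set, not shown, stands in those tables. The filled points number 3, 3, 2, 1 and 2 in these 5 lists, and no starred gene is filled.

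The genes most like each member were looked for by Pearson r over the 15 arrays among 18812 tested probe sets with 1 gene each. For CSLC1 these were WOX6, a homeobox gene (r = 0.96, Spearman rho = 0.55), Os01g44110, described as a receptor kinase like BAK1 of brassinosteroid signalling (0.96 and 0.82), Os02g08220 (0.95 and 0.50) and Os05g39830 (0.95 and 0.66), which have no described function, and Os01g32330, a putative farnesylated protein (0.95 and 0.63). All 5 had their highest group mean in the lower flank after 6 h, as CSLC1 did. This follows from the choice by r over these same arrays, as CSLC1 varied mostly through that group. By Spearman rho, in the order given, they ranked 263, 10, 406, 89 and 126. WOX6 had means of 2.81 to 3.09 in the first 4 groups and 5.72 in the lower flank after 6 h.

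For CSLC7 the list held Os06g04250, a phi-1-like protein (r = 0.98, rho = 0.95), Os03g18910, a COBRA-like protein of the kind that helps to lay down cellulose in Arabidopsis (0.97 and 0.93), Os07g10150, a subunit of the coatomer that coats Golgi vesicles (0.97 and 0.90), Os12g39380 (0.97 and 0.95) and Os03g63540 (0.97 and 0.88). For CSLC9 it held Os06g36050 (0.96 and 0.88), Os02g42660, described as a dihydroceramide enzyme (0.96 and 0.91), Os05g25540, a putative phytosulfokine receptor (0.96 and 0.83), Os07g02200, a putative blue copper protein (0.96 and 0.88), and Os03g11210 (0.95 and 0.80). No gene stood in more than 1 of the lists, and CSLC9 itself ranked 60th among all tested probe sets by likeness to CSLC7.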

How the data were processed

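RNA was read on 15 Affymetrix rice arrays, in 5 groups of 3. For each probe set of an array the authors deposited a linear intensity from GCOS (the processing notes name MAS5), with a scaling target not stated in the sources at hand. Their centring on chip and gene medians is not in these values. Here log2 intensities were centred on each array's median, 187 control probe sets were left out, and the brighter 50% by mean over all arrays were kept, without regard to group. This left 28597 to test in limma 3.58.1 (R 4.3.3), with 1 mean per group, 10 residual and 2.68 prior degrees of freedom, and Benjamini-Hochberg adjustment within each of 9 comparisons at 0.05. limma stands in for the RVM ANOVA of the methods, which was not run. Simulated data (28597 probe sets, 6 h flanks) had the same groups, with normal noise drawn independently for each array. There limma recovered 58 of 100 changes of 1 and 88 of 100 changes of 2 on the log2 scale. The likeness between flank samples of the same replicate number was not simulated. The number of arrays limits the precision, and p-values measure the spread between replicate pools.

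Samples were grouped by their labels. The members and gene lists were chosen with earlier results of these data known. Genes were named through the array annotation and RefSeq synonyms (1 gene for 22436 probe sets, several for 95, none for 34850) or through descriptions that the study's tables give for 1241 probe sets, picked by the study from these same arrays. Named are all CSLC genes, the called list members (at most 4, or the 2 brightest where fewer than 2 were called), and the 5 genes most like each member. A few list genes beyond this rule are named as well. The brightest probe set stands for a list gene. RBCS2, CAB1R, LHCB, RCC3 and NRT2.1 were not matched.

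Deviations from group means correlated between same-numbered flank samples at 0.48, 0.26 and 0.41 at 6 h. Different numbers gave −0.01 or below there, so the numbers pair the 6 h samples. At 0.5 h the values were 0.50, 0.22 and 0.24, against up to 0.22 between different numbers. Only the value of 0.50 stood clear of these, so pairs at 0.5 h are not shown for every number. For the 0 h and 0.5 h lower samples the values were 0.42, 0.15 and 0.29, against 0.08 or below between different numbers. The other comparisons had a same-number value under 0.1. The calls printed come from the fit without pairs, and a replicate block was an alternative. Alternatives were other scalings, filters and variance models, left-out arrays and another probe set. Sequences and coordinates were not analysed here.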

Additional observations from a re-analysis of the deposited data

Results flagged for a closer look

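The flank difference of CSLC1 changed between the time points by the test of the change itself: it was 1.22 larger at 6 h than at 0.5 h on the log2 scale (SE 0.16, limma adjusted p = 0.00407). The lower flank was higher in 3 of 3 replicates at 6 h and lower in 3 of 3 at 0.5 h. Flanks of the same replicate number at 0.5 h differed by −0.37, −0.19 and −0.05, beside a median of −0.08 over all probe sets tested. That difference did not pass (−0.20, limma adjusted p = 0.992), so no reversal is read from it. The growth for CSLC1 lost its call without the arrays of replicate 1 and without centring. The same test did not pass for CSLC7 (0.93) or CSLC9 (0.65). For CSLC1 it draws on the same 6 h values as the flank comparison, so it is no independent evidence.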

How the results depend on the processing

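Values are log2 differences, and the cause of a change was not tested. Of the calls of CSLC1, CSLC7 and CSLC9, leaving out each array changed that of CSLC9 between the flanks at 6 h (0.56 to 0.69, called in 6 of 15 fits) and no other. It turned the sign of 0.5 h and 0 h comparisons that were not called: CSLC1 in the upper flank at 0.5 h against 0 h (−0.0082 to 0.10), CSLC7 and CSLC9 between the flanks at 0.5 h (−0.11 to 0.027 and −0.059 to 0.071) and in the lower flank after 6 h against 0 h (−0.13 to 0.088 and −0.096 to 0.14).

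Without centring, calls were lost between the flanks at 6 h for CSLC1 (1.02), CSLC7 (0.88) and CSLC9 (0.65), for the growth of the CSLC1 flank difference (1.0) and for CSLC9 in the upper flank at 6 h against 0 h (−0.70), and CSLC7 fell in the lower flank from 0.5 h to 6 h (−0.60). Signs of uncalled values turned between the flanks at 0.5 h (0.015, 0.16 and 0.21 for CSLC1, CSLC7 and CSLC9) and for CSLC1 in the lower flank after 0.5 h against 0 h (0.12). Quantile scaling and centring on the 75th percentile kept all calls. They turned uncalled values of CSLC7 and CSLC9 between the flanks at 0.5 h (0.024 and 0.074, 0.014 and 0.062) and in the lower flank after 6 h against 0 h (0.065 and 0.095, 0.18 and 0.18), the percentile also CSLC1 in the upper flank at 6 h against 0 h (0.037). The growth of the CSLC7 flank difference passed under both (0.90 and 0.91), and at 0.93 with a brighter filter, trended variances or the replicate block.

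With log2(signal + 16), CSLC9 lost its call at 6 h (0.63), CSLC7 fell in the lower flank from 0.5 h to 6 h (−0.40), and CSLC7 and CSLC9 turned at 0.5 h (0.036 and 0.082). Without the filter CSLC9 lost its call (0.65). With only the arrays of a comparison, CSLC7 (0.87) and CSLC9 (0.65) lost it between the flanks at 6 h, as did CSLC9 in the upper flank against 0 h (−0.65). Without replicate 1, losses were CSLC7 (0.96) and CSLC9 (0.69) at 6 h and the growth for CSLC1 (1.14), and uncalled values turned for CSLC9 in the lower flank after 0.5 h (−0.0027) and CSLC7 in the lower flank after 6 h (0.0055) against 0 h. The second CSLC7 probe set turned only uncalled values, between the flanks at 0.5 h (0.062) and in the lower flank after 6 h against 0 h (0.021).

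The replicate block changed no other call of CSLC1, CSLC7 or CSLC9. Blocked values between the flanks at 6 h were 1.01 (adjusted p = 0.00446), 0.87 (0.00772) and 0.65 (0.0191) for CSLC1, CSLC7 and CSLC9. Over all probe sets, calls between the flanks at 6 h numbered 502, and 1073 with the block, 222 without centring, 249 without the filter and 237 without replicate 1. Calls for the growth numbered 156, and 304, 26, 66 and 17 in the same order. Counts for the gene lists without the arrays of replicate 1, and left-out arrays and the block over time for the list genes, were added after the data had been seen.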
